A study of Saccharomyces cerevisiae with 17 samples.

Results

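The coldest and the warmest point of a daily temperature cycle were compared in the budding yeast Saccharomyces cerevisiae. The comparison used the arrays labelled DTC 12°C against those labelled DTC 30°C, 4 of the 17 arrays of the series (2 per group), and covered all 5656 genes that could be measured. DTC_12 denotes the cold extreme, 12 °C at hour 12 of the cycle, and DTC_30 the warm extreme, 30 °C at hour 0. Both groups were the strain CEN.PK113-7D (MATa MAL2-8C SUC2), a haploid laboratory strain with functional maltose and invertase genes, grown without oxygen in chemostats in which glucose limited growth. A chemostat is a culture fed and drained at a steady pace, and its dilution rate (0.03 per h) fixes the growth rate only as a mean over time. The temperature followed a sine wave with a period of 24 h, and cells were sampled in cycles 5 and 6. The other groups were points between the extremes, namely 21 °C while the temperature fell (hour 6), 14.6 °C (hour 9), 21 °C while it rose (hour 18) and 27.4 °C (hour 21). Cultures held constantly at 12 °C (SS_12) or 30 °C (SS_30), with 2 arrays each, serve below as a comparison. All cycle points came from the same 2 cultures, while the p-values treat the arrays as independent. The p-values therefore measure only the spread between replicate arrays, pooled over 16 arrays of 8 groups and not taken from the 4 compared arrays alone.

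Yeast cells spend much of their transcription on making ribosomes, and they adjust it to nutrients and stress through shared regulators. When sugar is scarce, the kinase Snf1 and activators such as Cat8, Adr1 and the Hap complex turn on genes for respiration, gluconeogenesis and other carbon sources, while ample glucose represses them. The activators Msn2 and Msn4 turn on a general stress programme, and Hsf1 turns on chaperone genes after heat. In the cold, ribosome assembly and translation slow down, and membranes need more unsaturated lipids to remain fluid.

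Each signal is a probe set's brightness on an array. The deposited values share a mean of 240.2 on every array once the top and bottom 2% are left out. A change is therefore relative to the rest of the messenger RNA, and a change in the amount of RNA per cell cannot be told apart from it. Between 5305 and 5395 of the genes lay above background on each array used. The background was a signal of 10.46, set by control probe sets that have no target. The replicate arrays correlated at 0.968 at DTC_12 and at 0.956 at DTC_30 (Pearson's r of log2 signals across genes, which are not independent). DTC_30 had the least alike replicates of all groups, since 9.4% of its genes above background differed by over 2-fold between its arrays, against 4.51% at DTC_12. The difference between replicates also went with gene length, with a Spearman's rho of -0.377 at DTC_12 and 0.281 at DTC_30 across 5244 genes, and of 0.151 for the change between the groups. The part of this in the results was not tested beyond a refit with the length trend removed from each array. Of the strain's markers, all 7 genes specific to MATa cells were above background on all 16 arrays, and none passed the test. Of 4 genes specific to MATalpha cells, which this strain should not express, 1 rose and 1 fell. The pheromone gene MF(ALPHA)1 rose, with signals of 2068.4 and 1581.9 at DTC_12 against 204.8 and 228.3 at DTC_30 (log2 change 3.06 ± 0.24 SE, adjusted p = 8.26e-06). The pheromone receptor gene STE3 fell, with 46.6 and 36.0 at DTC_12 against 58.6 and 112.6 at DTC_30 (-0.99, adjusted p = 0.0387), but did not pass after quantile normalization or without DTC_12 replicate 1, DTC_12 replicate 2 or DTC_30 replicate 2 (-0.52 without the last). MF(ALPHA)2 (0.41, adjusted p = 0.192) and SAG1 (-0.34, adjusted p = 0.487) did not pass, though MF(ALPHA)2 did with the length trend removed. The part of these genes in the results was not tested.

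The cold and the warm extreme differed widely and nearly evenly in both directions. Of 5656 genes, 931 (16.5%) were higher and 924 (16.3%) were lower at DTC_12, 1855 (32.8%) in all, at a Benjamini-Hochberg adjusted p under 0.05 in a limma model. Each count of a gene group below from this model is to be read beside these shares of all genes. At least a 2-fold change was seen in 646 of the higher and 706 of the lower genes, and at least an 8-fold change in 19 and 43. The falls were deeper on the whole, with a median size of 1.38 on the log2 scale for lower genes and of 1.20 for higher genes. For each of these 1855 genes both arrays of a group lay on the same side of both others. Such a separation was seen in 3480 (61.5%) of all genes, upward in 31.9% and downward in 29.6%. Without DTC_12 replicate 2, 567 genes were higher and 658 lower. With only the 4 arrays compared in the model, 340 genes were higher and 442 lower.

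**Figure D1:**
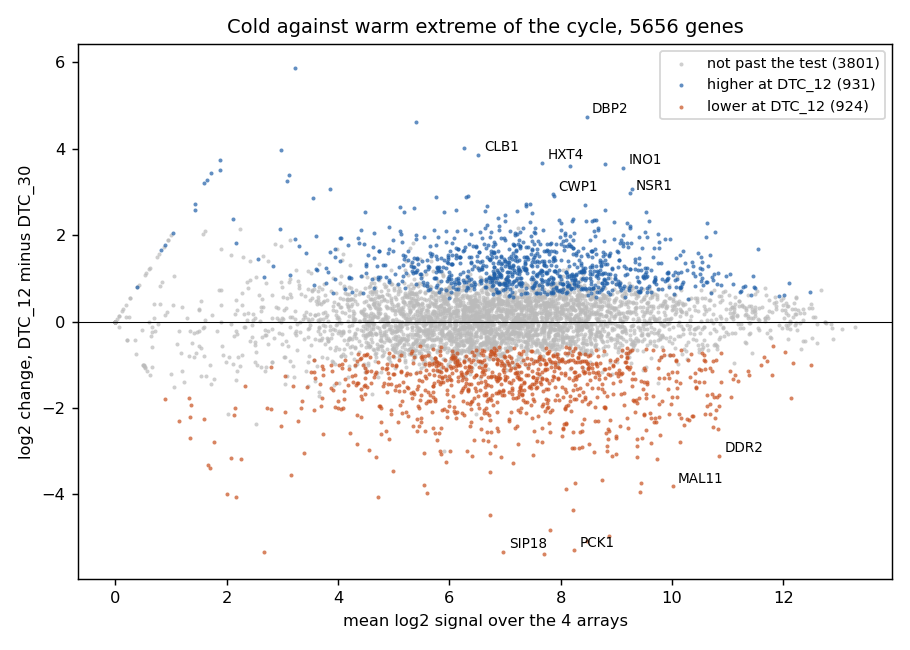
Each point is a gene, with its mean log2 signal over the 4 arrays on the x axis and the log2 change, DTC_12 minus DTC_30, on the y axis. The 931 higher genes are blue, the 924 lower genes orange and the others grey. The changes of DBP2 (4.75) and SIP18 (-5.33) lie near the edges of the cloud, while dim genes on the left spread with little precision.

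The leading rises belonged to an RNA helicase, exporters, a cyclin, a hexose transporter and lipid enzymes. DBP2, a helicase that works on precursor ribosomal RNA and in RNA decay, had signals of 1773.2 and 1885.9 at DTC_12 against 58.1 and 80.0 at DTC_30 (26.8-fold, log2 change 4.75 ± 0.20 SE, adjusted p = 7.11e-08). Its arrays agreed closely within the cold group. AZR1, a membrane transporter for resistance to azoles and acetic acid, had 211.5 and 208.0 at DTC_12 against 10.4 and 7.0 at DTC_30, both under background. It was thus at least 20.1-fold higher (adjusted p = 9e-06). The weak acid exporter gene PDR12 had 1561.8 and 1603.1 at DTC_12 against 137.9 and 114.1 at DTC_30 (3.66 ± 0.29, adjusted p = 8.26e-06). ATF2, an alcohol acetyltransferase, had 859.5 and 1162.3 at DTC_12 against 110.3 and 61.0 at DTC_30 (3.61 ± 0.31, adjusted p = 1.35e-05). For EFM6, a methyltransferase of a translation elongation factor, the signals were 245.0 and 387.8 at DTC_12 and 19.8 and 18.5 at DTC_30 (4.01 ± 0.32, adjusted p = 9e-06). The short open reading frame YMR230W-A had 72.1 and 70.6 at DTC_12 against 0.7 and 1.5 at DTC_30, which is a rise of at least 6.82-fold.

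The leading falls belonged to stress proteins, to gluconeogenesis and to genes linked to respiratory growth. SIP18, a hydrophilin that protects cells against drying, had 20.3 and 19.2 at DTC_12 against 858.0 and 732.9 at DTC_30 (40.2-fold lower). YRO2, a membrane protein of the Hsp30 family, had 52.1 and 19.7 at DTC_12 against 1429.2 and 1264.8 at DTC_30 (-5.39 ± 0.50), and its change ranged from -6.09 without DTC_12 replicate 1 to -4.69 without DTC_12 replicate 2. Its relative HSP30 fell as well, with 54.4 and 78.6 at DTC_12 against 1331.3 and 1366.9 at DTC_30 (-4.37 ± 0.29, adjusted p = 2.47e-06). ISF1 and RGI2, both known for a part in respiratory growth, changed by -4.97 and -4.82 on the log2 scale. ISF1 had 77.7 and 89.2 at DTC_12 against 2559.8 and 2656.0 at DTC_30, so neither its cold nor its warm arrays differed much from each other. CSR2, an arrestin-related adaptor for the removal of membrane transporters, fell by 3.98 (adjusted p = 8.26e-06). TMA10, a ribosome-associated stress protein, had 195.0 and 156.4 at DTC_12 against 2312.4 and 3149.9 at DTC_30. YKL107W was at least 3.88-fold lower, since it was under background at DTC_12.

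Most genes for the assembly of both ribosomal subunits were higher at the cold extreme. Of 54 genes of the small-subunit processome, the nucleolar complex that folds and cuts the precursor of 18S ribosomal RNA, 48 rose and none fell. The median log2 change was 1.52, beside 0.05 over all genes. UTP6, one of its scaffold proteins, had 159.8 and 286.7 at DTC_12 against 36.0 and 23.0 at DTC_30 (2.90 ± 0.38, adjusted p = 0.000166). NOP1, the fibrillarin that methylates ribosomal RNA, had 1502.0 and 1470.4 at DTC_12 against 517.8 and 400.0 at DTC_30 (1.71 ± 0.28, adjusted p = 0.000666). UTP9 rose by 2.33. Among 62 genes of large-subunit assembly, 56 rose and none fell, with a median of 1.52. NOP7, needed for the processing of 27S precursor RNA, had 168.1 and 171.3 at DTC_12 against 27.6 and 29.1 at DTC_30 (2.58 ± 0.25, adjusted p = 2.42e-05). All 62 members had higher signals on both cold arrays than on both warm ones, as had 31.9% of all genes. LOC1 (2.72) and RIX1 (2.68) rose most, and the GTPase gene NOG1 (2.35) and the export adaptor gene NMD3 (2.33) rose too. Without DTC_12 replicate 2, 32 genes of the processome and 48 of large-subunit assembly passed. With only the compared groups in the model, 23 and 36 passed.

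Genes that guide, trim and transcribe ribosomal RNA rose in part. Of 12 genes for box H/ACA particles, which turn uridine into pseudouridine, and for nucleolar shuttling proteins, 10 rose and none fell (median 1.27). NSR1, the nucleolin-like protein long known as a cold shock gene, led them with 1714.8 and 1691.5 at DTC_12 against 218.0 and 216.7 at DTC_30 (7.84-fold, 2.97 ± 0.27, adjusted p = 1.63e-05). CBF5, the pseudouridine synthase of these particles, rose by 1.12 ± 0.25, with 1957.0 and 1946.3 at DTC_12 and 905.9 and 885.7 at DTC_30. Among 23 genes of the RNA exosome and other trimming factors, 11 rose and none fell (median 0.77), led by RNT1, the ribonuclease III that makes the initial cut (1.76 ± 0.22). RNA polymerase I, which transcribes ribosomal RNA, had 10 of 15 genes higher and none lower (median 0.99), and 6 higher without DTC_12 replicate 2. Its initiation factor gene RRN3 had 241.6 and 178.8 at DTC_12 against 46.8 and 62.0 at DTC_30 (1.95 ± 0.31, adjusted p = 0.000555). RNA polymerase III was less uniform, with 4 of 19 genes higher (21.1%, beside 16.5% of all genes) and 1 lower (5.26%, beside 16.3%). The subunit gene RPC53 (1.77) was among those higher. The lower gene was BDP1, of the initiation factor TFIIIB (-1.22, adjusted p = 0.0495). BDP1 did not pass without DTC_12 replicate 2 (adjusted p = 0.339), DTC_30 replicate 1 (0.0755) or DTC_30 replicate 2 (0.195), after quantile normalization (0.0562) or with a floor of 12 (0.0744). Without DTC_12 replicate 2, 1 gene of the 19 was higher.

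The ribosomal proteins themselves did not share the size of this change. Of 80 measured genes 7 rose and 1 fell, which is 8.75% higher against 16.5% of all genes, and the median log2 change was 0.29. RPL22B (1.28) and RPL9A (1.25) rose most, and RPS14B fell by 0.77. This count depended on the processing, since 22 rose after the length trend was removed, 13 after quantile normalization, 3 when arrays were centred on their medians, 1 without DTC_12 replicate 1, 3 without DTC_12 replicate 2 and 2 without DTC_30 replicate 1. With the length trend removed, 1044 of all 5656 genes rose, a smaller share than the 22 of 80 ribosomal protein genes. Whether these genes rose less often than all genes thus depended on the processing. A further 57 ribosomal protein genes could not be measured, because their probe sets match several genes.

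Many genes of transfer RNA modification and some of translation initiation were higher too. Of 24 transfer RNA modification genes 16 rose and none fell (median 1.13). NCL1, a methyltransferase of transfer RNA, had 392.2 and 455.5 at DTC_12 against 145.3 and 99.6 at DTC_30 (1.81 ± 0.23, adjusted p = 0.000148). Translation factors gave 12 rises and no fall among 30 (6 rises without DTC_12 replicate 1). The helicase gene DED1, which unwinds the start of messages for scanning, had 869.7 and 925.8 at DTC_12 against 271.4 and 114.3 at DTC_30 (2.35 ± 0.47, adjusted p = 0.00239). The warm arrays of DED1 differ, so its change was 2.97 without DTC_30 replicate 1 and 1.73 without DTC_30 replicate 2. PRT1, a subunit of initiation factor 3, rose by 1.61, and TIF4631, the scaffold factor 4G, by 1.40. Of the enzymes that charge transfer RNA 3 of 19 were higher (15.8%, near the 16.5% of all genes), with a median of 0.50. The count was 1 without DTC_12 replicate 1, DTC_12 replicate 2 or DTC_30 replicate 2 and 5 without DTC_30 replicate 1.

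Of 15 genes of the cytosolic chaperonin, which folds actin and tubulin, and its partner prefoldin, 8 rose and none fell, among them CCT7 (1.34) and CCT2 (1.20). The number that rose was 5 without DTC_12 replicate 1 and 4 without DTC_12 replicate 2 or DTC_30 replicate 2. Nuclear transport had 3 of 20 genes higher (15%, beside 16.5% of all genes) and 1 lower. The lower gene was GSP2, a copy of the GTPase Ran known to be repressed by glucose, with 60.8 and 61.0 at DTC_12 against 301.9 and 298.9 at DTC_30 (-2.30 ± 0.31). The main copy, GSP1, had overlapping signals of 1073.1 and 1266.3 at DTC_12 and of 1077.6 and 1791.3 at DTC_30. Of 30 genes for purines and pyrimidines 7 rose and 4 fell (3 rose without DTC_12 replicate 1 or replicate 2). In the full model 23.3% of these genes were higher and 13.3% lower, beside 16.5% and 16.3% of all genes. IMD4, an IMP dehydrogenase of guanine nucleotide synthesis, had 558.3 and 563.6 at DTC_12 against 71.7 and 170.6 at DTC_30 (2.34 ± 0.36). The change of IMD4 was 1.72 without DTC_30 replicate 1 and 2.97 without DTC_30 replicate 2. The CTP synthase gene URA7 had 1072.7 and 1544.7 at DTC_12 against 303.0 and 231.1 at DTC_30 (2.28 ± 0.25, adjusted p = 6.18e-05). The uridine permease gene FUI1 (-1.92) and the adenylosuccinate lyase gene ADE13 (-1.37) fell.

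**Figure D2:**
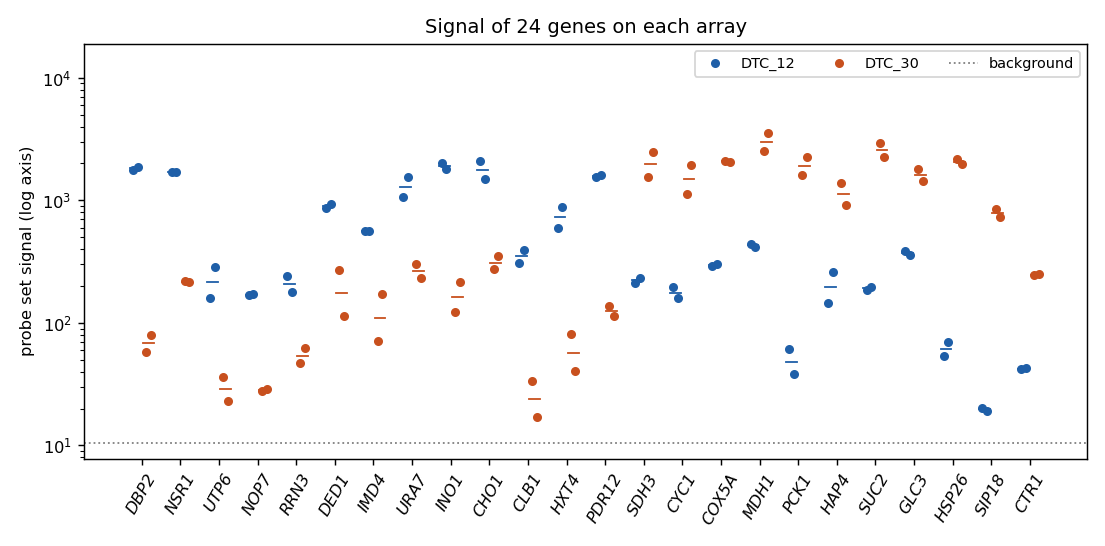
The probe set signal of 24 genes is plotted on a log axis, with DTC_12 arrays in blue left of DTC_30 arrays in orange. Dots are arrays, bars their geometric means, and the dotted line is the background of 10.46. The arrays of the groups do not overlap for any of the 24 genes, which were chosen among those past the test.

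Many genes of phospholipid synthesis rose at the cold extreme. Of 24 genes for phospholipids and inositol 14 rose and none fell (median 0.97). INO1, the enzyme that makes inositol phosphate, had 2028.9 and 1808.0 at DTC_12 against 122.9 and 215.6 at DTC_30 (11.8-fold, 3.56 ± 0.34, adjusted p = 1.99e-05). CHO1, the phosphatidylserine synthase, had 2113.4 and 1502.9 at DTC_12 against 272.8 and 350.2 at DTC_30 (2.53 ± 0.31, adjusted p = 0.00012). These genes are known targets of the activator Ino2 and the repressor Opi1, and the genes of both were higher, INO2 by 2.91 ± 0.50 and OPI1 by 1.76 ± 0.25. The choline permease gene HNM1 (2.21) and the inositol permease gene ITR1 (1.96) rose with them. Sterol synthesis had 13 of 27 genes higher and none lower (median 0.77), though 6 without DTC_12 replicate 2 and 8 without DTC_30 replicate 2. CYB5, the cytochrome that passes electrons to sterol and fatty acid enzymes, had 853.7 and 810.0 at DTC_12 against 218.3 and 241.7 at DTC_30 (1.86 ± 0.25). HMG1, the rate-limiting reductase, had 1131.0 and 1695.8 at DTC_12 against 543.5 and 531.3 at DTC_30 (1.37 ± 0.25). Its copy HMG2, which serves cells short of oxygen, did not pass (0.77, adjusted p = 0.132).

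Of 7 genes for sterol import and storage 3 rose and 1 fell, with 1 rise without DTC_12 replicate 1, DTC_12 replicate 2 or DTC_30 replicate 2. The full model had 42.9% of these genes higher and 14.3% lower, beside 16.5% and 16.3% of all genes. The lower gene was SUT1, an activator of sterol uptake without oxygen, with 96.2 and 100.4 at DTC_12 against 647.6 and 383.6 at DTC_30 (-2.34 ± 0.29, adjusted p = 0.00012). Fatty acid synthesis and elongation had 7 of 18 genes higher and none lower, and 4 without either DTC_12 array. The fatty acid synthase gene FAS1 rose by 1.35 and the elongase gene ELO2 by 1.39. OLE1, the desaturase that makes unsaturated fatty acids and is known for its rise after cold shock, was bright and nearly level, with 4008.1 and 4981.5 at DTC_12 and 4533.1 and 4315.6 at DTC_30 (0.01, 95% interval -0.40 to 0.43, adjusted p = 0.968). Desaturation by Ole1 needs oxygen, which these cultures lacked. Of 12 genes known from cold shock 2 rose (16.7%, the share of all genes being 16.5%), NSR1 and BFR1 (0.97, adjusted p = 0.0361), and BFR1 did not pass without DTC_12 replicate 1, DTC_12 replicate 2 or DTC_30 replicate 2 (0.56 to 1.15).

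Of 28 genes for cyclins and cell cycle control 10 rose and none fell (6 rose without DTC_12 replicate 2). The full model had 35.7% of these genes higher, beside 16.5% of all genes. CLB1, a B-type cyclin of mitosis, had 309.9 and 396.1 at DTC_12 against 33.8 and 17.2 at DTC_30 (14.5-fold, 3.86 ± 0.30, adjusted p = 8.26e-06). Its copy CLB2 had 117.2 and 62.6 at DTC_12 and 50.1 and 33.7 at DTC_30 and did not pass (1.06, adjusted p = 0.0864), though it did after quantile normalization (adjusted p = 0.0496). PCL2, a cyclin of the kinase Pho85, rose by 1.67, and SWE1, the kinase that delays mitosis, by 1.46. Among 37 genes for DNA replication and cohesion 9 rose (24.3%, beside 16.5% of all genes) and 2 fell. RNR1, the large subunit of ribonucleotide reductase, had 1398.6 and 1977.2 at DTC_12 against 534.5 and 397.4 at DTC_30 (1.85 ± 0.27). The cohesin gene MCD1 was at least 2.71-fold higher, as it was under background at DTC_30. The lower genes were MCM7 (-0.77, adjusted p = 0.0393) and MCM5 (-0.68, adjusted p = 0.049), subunits of the replicative helicase. MCM7 did not pass without DTC_12 replicate 1, DTC_30 replicate 1 or DTC_30 replicate 2, and MCM5 did not pass when any 1 of the 4 arrays was left out.

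Of 31 cell wall genes 11 rose and 1 fell (6 rose without DTC_12 replicate 1). Of the cell wall genes 35.5% were higher and 3.23% lower in the full model, beside 16.5% and 16.3% of all genes. The mannoprotein gene CWP1 had 630.0 and 661.0 at DTC_12 against 52.2 and 134.6 at DTC_30 (2.94 ± 0.39, adjusted p = 0.000196), and its change was 2.26 without DTC_30 replicate 1. The chitin synthase gene CHS1 rose by 1.56. FLO11, the adhesin of filamentous and biofilm growth, fell, with 792.9 and 957.3 at DTC_12 against 4245.8 and 3006.8 at DTC_30 (-2.04 ± 0.33). Endoplasmic reticulum folding genes gave 9 rises and no fall among 15, though 4 without DTC_12 replicate 1 or DTC_30 replicate 1 and 5 without DTC_12 replicate 2. The rises in the full model were 60% of the folding genes, beside 16.5% of all genes. EUG1, a protein disulphide isomerase, had 428.1 and 689.2 at DTC_12 against 166.0 and 110.0 at DTC_30 (2.01 ± 0.27, adjusted p = 0.000216). SIL1, which frees ADP from the chaperone Kar2, rose by 1.79. Seripauperins (PAU), mannoproteins too alike for the probes to tell all members apart, rose in 5 of 10 cases (50%, beside 16.5% of all genes). PAU13 rose by 2.08 and PAU10 by 2.03, and 9 of the 10 rose with the length trend removed.

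**Figure D3:**
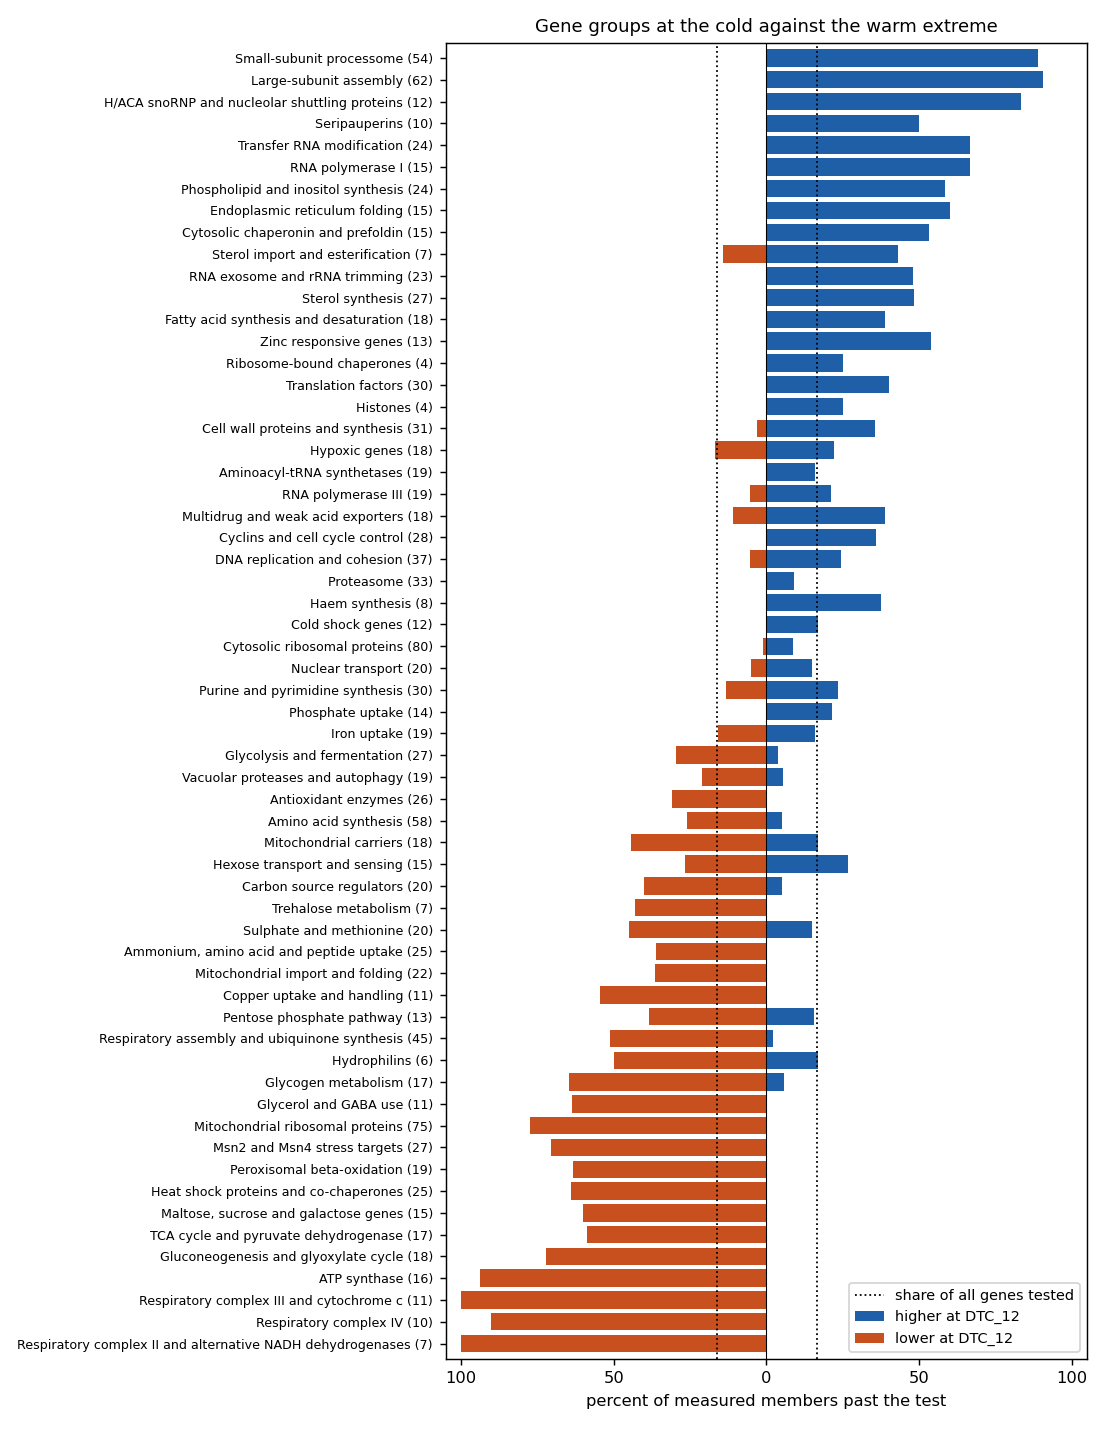
For each gene group, with the number of measured members in parentheses, bars to the right give the percent of members higher at DTC_12 and bars to the left the percent lower. Dotted lines mark the share over all 5656 genes (16.5% higher, 16.3% lower). Groups are ordered by their median change, from ribosome assembly at the top to the respiratory complexes at the bottom.

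Nearly all genes for subunits of the respiratory complexes and the ATP synthase fell, in cultures that had no oxygen to respire. Of 7 genes for complex II and the alternative NADH dehydrogenases all 7 fell, beside 16.3% of all genes, with a median of -2.74. SDH3, the membrane anchor of succinate dehydrogenase, had 211.1 and 234.0 at DTC_12 against 1559.5 and 2473.5 at DTC_30 (-3.14 ± 0.27, adjusted p = 1.15e-05). NDI1, the internal NADH dehydrogenase, had 128.3 and 106.2 at DTC_12 against 921.7 and 842.8 at DTC_30 (-2.92 ± 0.39). All 11 genes of complex III and cytochrome c fell, with a median of -2.22. CYC1, the main cytochrome c, had 197.0 and 158.3 at DTC_12 against 1135.3 and 1945.5 at DTC_30 (-3.07 ± 0.28, adjusted p = 1.81e-05). Of 10 genes of complex IV 9 fell (median -2.25). COX26 had 30.9 and 16.2 at DTC_12 against 533.7 and 464.2 at DTC_30 (-4.48 ± 0.35), a change of -3.85 with the length trend removed.

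Copies of subunit 5 of complex IV, which yeast exchanges with the oxygen supply, behaved differently. COX5A, the form of aerobic cells, had 289.1 and 301.9 at DTC_12 against 2094.0 and 2064.9 at DTC_30 (-2.82 ± 0.21, adjusted p = 7.48e-06). COX5B, the hypoxic form, had 110.3 and 109.2 at DTC_12 and 113.3 and 104.2 at DTC_30 (0.01, 95% interval -0.58 to 0.60). Other such pairs varied. CYC7, the hypoxic copy of cytochrome c, fell like CYC1 (-1.64 ± 0.47, adjusted p = 0.0197). Of the ADP/ATP carrier genes PET9 fell (-1.09 ± 0.23, adjusted p = 0.00325) and AAC3 did not pass (0.77, adjusted p = 0.136). For translation factor 5A neither HYP2 (0.58) nor ANB1 (0.77) passed. The ATP synthase had 15 of 16 genes lower (median -1.69), and the exception was the alpha subunit gene ATP1 (-0.63, adjusted p = 0.0711), which passed when arrays were centred on their medians, with a trended robust prior and with the length trend removed. INH1, which keeps the enzyme from running backwards, had 332.9 and 352.2 at DTC_12 against 1703.2 and 1393.2 at DTC_30 (-2.17 ± 0.21). Of 45 genes for assembly of these complexes and for ubiquinone 23 fell, 1 rose and 21 did not pass (14 fell without DTC_12 replicate 2). The copper chaperone gene COX17 fell by 2.38 (1.76 with the length trend removed), and COQ8, a kinase-like protein of ubiquinone synthesis, rose by 0.92. COQ8 did not pass without DTC_12 replicate 2 or DTC_30 replicate 2 (0.79 and 0.67).

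The mitochondrial ribosome, which translates the few proteins encoded in mitochondria, moved opposite to the assembly of cytosolic ribosomes. Of 75 mitochondrial ribosomal protein genes 58 fell and none rose, with a median of -1.16, and 39 of them passed without DTC_12 replicate 2. MRPL4 had 234.8 and 196.5 at DTC_12 against 889.3 and 1227.3 at DTC_30 (-2.28 ± 0.33), and MRPL28 fell by 2.23. Import and folding in mitochondria had 8 of 22 genes lower (36.4%, beside 16.3% of all genes) and none higher. The chaperonin lid gene HSP10 had 411.8 and 195.1 at DTC_12 against 2048.5 and 3231.9 at DTC_30 (-3.18 ± 0.41, adjusted p = 0.000161), and its partner HSP60 fell by 1.95.

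Of 17 genes of the tricarboxylic acid (TCA) cycle and pyruvate dehydrogenase 10 fell and none rose (median -1.53). The malate dehydrogenase gene MDH1 had 442.8 and 418.9 at DTC_12 against 2505.6 and 3530.6 at DTC_30 (-2.79 ± 0.26, adjusted p = 1.81e-05). Aconitase, ACO1, had 539.3 and 524.5 at DTC_12 against 2841.2 and 2167.8 at DTC_30 (-2.22 ± 0.25). Of 18 carriers of the inner membrane 3 were higher (16.7%, near the 16.5% of all genes) and 8 lower (44.4%, beside 16.3%). The pyruvate carrier pairs Mpc1 with Mpc2 in fermenting cells and with Mpc3 in respiring cells. MPC1, the shared subunit, rose, with 441.5 and 325.0 at DTC_12 against 184.2 and 149.9 at DTC_30 (1.19 ± 0.23, adjusted p = 0.00194). MPC2, the fermentative partner, had 1549.9 and 1444.7 at DTC_12 and 1784.3 and 1793.5 at DTC_30 and did not pass (-0.26, adjusted p = 0.343). MPC3, the respiratory partner, fell, with 114.8 and 160.5 at DTC_12 against 1152.7 and 1065.7 at DTC_30 (-3.03 ± 0.24, adjusted p = 8.61e-06). The acetyl-CoA synthetase genes moved in opposite directions, with a log2 change of 1.14 for ACS2, the form of glucose-grown cells, and of -1.16 for ACS1, which glucose represses. Neither passed without DTC_12 replicate 2 or DTC_30 replicate 2 (ACS2 1.04 and 0.94, ACS1 -1.01 and -0.95).

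Of 18 genes of gluconeogenesis and the glyoxylate cycle 13 fell and none rose (median -1.56). PCK1, the committed enzyme of gluconeogenesis, had 60.8 and 38.3 at DTC_12 against 1600.5 and 2252.0 at DTC_30 (39.3-fold lower, adjusted p = 5.87e-06). FBP1, the other enzyme special to this pathway, fell by 1.48 ± 0.27, with 37.6 and 41.1 at DTC_12 and 95.3 and 125.5 at DTC_30. The isocitrate lyase gene ICL1 was an exception, with 189.8 and 264.4 at DTC_12 and 250.4 and 201.1 at DTC_30. Among 20 genes of regulators of carbon use 8 fell and 1 rose. The activator gene CAT8 had 4.6 and 9.1 at DTC_12, under background, against 114.2 and 100.8 at DTC_30, and was at least 10.3-fold lower. HAP4, the activating subunit for respiratory genes, had 146.6 and 259.7 at DTC_12 against 1379.1 and 920.4 at DTC_30 (-2.53 ± 0.38). MIG2, a repressor that acts when glucose is ample, was the gene that rose, with 100.1 and 75.2 at DTC_12 against 11.1 and 17.0 at DTC_30 (2.66 ± 0.40, adjusted p = 0.000377).

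Peroxisomal beta-oxidation, which degrades fatty acids, had 12 of 19 genes lower and none higher (median -1.25). FOX2, its multifunctional enzyme, had 54.3 and 70.1 at DTC_12 against 350.0 and 327.6 at DTC_30 (-2.46 ± 0.24). Of 11 genes for the use of glycerol and gamma-aminobutyrate 7 fell and none rose, and 4 fell without DTC_30 replicate 1. Of 15 maltose, sucrose and galactose genes 9 fell and none rose (median -1.41). The maltose permease gene MAL11 had 266.7 and 282.7 at DTC_12 against 4128.7 and 3624.6 at DTC_30 (-3.82 ± 0.35). SUC2, the invertase that splits sucrose, had 186.4 and 195.6 at DTC_12 against 2923.5 and 2248.0 at DTC_30 (13.4-fold lower, -3.75 ± 0.22, adjusted p = 6.47e-07).

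Of 15 genes for hexose transport and sensing 4 rose and 4 fell (26.7% each way, beside 16.5% and 16.3% of all genes), and 7 did not pass. HXT4, a transporter of high affinity, had 597.7 and 889.5 at DTC_12 against 80.7 and 40.2 at DTC_30 (12.8-fold higher, adjusted p = 4.01e-05). The low-affinity transporter gene HXT3 had 1386.4 and 1609.0 at DTC_12 against 385.5 and 324.8 at DTC_30 (2.08 ± 0.22), and HXT2 rose by 1.60. HXT5, a transporter of starved and slowly growing cells, had 22.3 and 21.7 at DTC_12 against 93.7 and 82.8 at DTC_30, and it fell (adjusted p = 0.000768). HXT14, a minor member of the family, fell by 0.88 (adjusted p = 0.0335), but did not pass without DTC_12 replicate 1, DTC_12 replicate 2 or DTC_30 replicate 1 (-0.45 without the last). The sensor gene SNF3 (-2.59) and MTH1 (-1.98), a repressor of transporter genes, fell, whereas its partner STD1 rose by 2.11. Glycolysis and fermentation had 1 of 27 genes higher and 8 lower (3.7% and 29.6%, beside 16.5% and 16.3% of all genes), and 5 lower without DTC_12 replicate 1 or DTC_30 replicate 1. The gene that rose was PDC5, a minor pyruvate decarboxylase, with 378.8 and 374.7 at DTC_12 against 121.5 and 68.7 at DTC_30 (2.04 ± 0.26).

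Some minor isoenzymes fell where the main form of the enzyme did not pass. Pyruvate kinase is an example. PYK2, the copy repressed by glucose, had 30.1 and 20.9 at DTC_12 against 98.8 and 114.6 at DTC_30 (-2.08 ± 0.35). The main copy CDC19 had 5542.8 and 5193.2 at DTC_12 and 3401.1 and 6516.9 at DTC_30 (0.19, 95% interval -0.42 to 0.80). In the pentose phosphate pathway the transketolase copy TKL2 fell by 2.23 while TKL1 had 1561.6 and 1478.0 at DTC_12 and 1445.7 and 981.3 at DTC_30 (0.35, 95% interval -0.22 to 0.92). The glutamate dehydrogenases both fell, but GDH3, the copy for growth on ethanol, had 109.7 and 132.8 at DTC_12 against 1488.6 and 1562.5 at DTC_30 (-3.66 ± 0.23, adjusted p = 1.4e-06). GDH1, the main copy, changed by -1.08, and it did not pass without DTC_12 replicate 2 or DTC_30 replicate 2 (-0.69 and -0.72).

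Of 17 glycogen genes 11 fell and 1 rose (median -0.93), and the number that fell was 6 without DTC_12 replicate 1 and 7 without either DTC_30 array. GLC3, the branching enzyme, had 386.3 and 358.9 at DTC_12 against 1807.8 and 1428.2 at DTC_30 (-2.11 ± 0.22, adjusted p = 3.64e-05). The debranching enzyme gene GDB1 fell by 1.64, so that genes of synthesis and of breakdown were both among the falls. Phosphoglucomutase copies went opposite ways, with a log2 change of 2.04 for PGM1 (adjusted p = 8.45e-05) and of -2.37 for PGM2, the major and stress-induced copy (adjusted p = 0.00521, and 0.0538 without DTC_30 replicate 2). The glycogen phosphorylase gene GPH1 had 387.6 and 434.1 at DTC_12 and 502.6 and 878.2 at DTC_30 and did not pass (-0.70, adjusted p = 0.164). Trehalose metabolism had 3 of 7 genes lower (42.9%, beside 16.3% of all genes) and none higher. The acid trehalase gene ATH1 (-2.12) and TSL1 (-1.95), a regulatory subunit of the synthase, were among the lower genes.

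Most heat shock and general stress genes fell in the cold. Of 25 heat shock proteins and co-chaperones 16 fell and none rose (median -1.27). The small heat shock protein gene HSP26 had 54.1 and 69.7 at DTC_12 against 2161.4 and 1969.6 at DTC_30 (33.6-fold lower, adjusted p = 7.11e-08). For Hsp90 the heat-induced copy HSP82 had 715.2 and 534.3 at DTC_12 against 3112.5 and 2530.5 at DTC_30 (-2.18 ± 0.23). The constitutive copy HSC82 had 2928.1 and 3182.2 at DTC_12 and 3314.7 and 4594.0 at DTC_30 and did not pass (-0.35, 95% interval -0.81 to 0.10). AHA1, which activates the ATPase of Hsp90, fell by 2.33. Of 27 targets of Msn2 and Msn4 19 fell and none rose (median -1.17). DDR2 had 696.8 and 565.1 at DTC_12 against 5065.4 and 5769.9 at DTC_30 (-3.11 ± 0.21), a change of -2.45 with the length trend removed. HSP12, a membrane-protecting hydrophilin, fell by 0.95 (adjusted p = 0.00935) but did not pass with the length trend removed (adjusted p = 0.172) or without DTC_12 replicate 1 (adjusted p = 0.0591).

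Antioxidant enzymes had 8 of 26 genes lower (30.8%, beside 16.3% of all genes) and none higher, led by GRX1 (-2.14) and the mitochondrial superoxide dismutase SOD2, with 209.2 and 234.0 at DTC_12 against 880.0 and 851.4 at DTC_30 (-1.97 ± 0.21). The proteasome had 3 of 33 genes higher and none lower, below the 16.5% of all genes, and no gene was higher without DTC_12 replicate 2 or DTC_30 replicate 2. Of 18 genes known as hypoxic 4 rose and 3 fell (22.2% and 16.7%, near the shares of all genes). The numbers were 2 rises without DTC_12 replicate 1, 1 fall without DTC_12 replicate 2, and 2 rises and 1 fall without DTC_30 replicate 2.

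Of 25 genes for uptake of ammonium, amino acids and peptides 9 fell (36%, beside 16.3% of all genes), none rose and 16 did not pass. DIP5, a permease of acidic amino acids, had 116.0 and 60.4 at DTC_12 against 976.0 and 1288.4 at DTC_30 (-3.74 ± 0.46), and the broad permease gene AGP1 fell by 2.88 ± 0.27. Of 58 amino acid synthesis genes 15 fell and 3 rose, and 7 fell without DTC_12 replicate 2 and 9 without DTC_30 replicate 2. In the full model 25.9% of the amino acid synthesis genes were lower and 5.17% higher, beside 16.3% and 16.5% of all genes. ARG1, of arginine synthesis, had 931.6 and 963.4 at DTC_12 against 3145.0 and 3217.9 at DTC_30 (-1.75 ± 0.22). The rises were SER3 (1.99), of serine synthesis, LYS9 (1.88), of lysine synthesis, and LEU9 (0.89). Sulphate and methionine genes gave 9 falls and 3 rises among 20 (5 falls and 1 rise without DTC_30 replicate 2, and 1 rise without DTC_12 replicate 1). In the full model 45% of the sulphate and methionine genes were lower and 15% higher, beside 16.3% and 16.5% of all genes. The sulphate permease gene SUL1 had 308.1 and 308.3 at DTC_12 against 1944.9 and 1595.5 at DTC_30 (-2.51 ± 0.20, adjusted p = 9e-06).

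Copper genes fell in 6 of 11 cases and rose in none (3 fell without DTC_12 replicate 2). The full model had 54.5% of the copper genes lower, beside 16.3% of all genes. The copper transporter gene CTR1 had 42.0 and 42.6 at DTC_12 against 244.5 and 250.8 at DTC_30 (-2.55 ± 0.24), and CTR3 fell by 3.14. Zinc-responsive genes rose in 7 of 13 cases and fell in none (3 rose without DTC_12 replicate 2). Of the zinc-responsive genes 53.8% were higher in the full model, beside 16.5% of all genes. The zinc transporter gene ZRT1 had 499.6 and 553.0 at DTC_12 against 212.5 and 181.6 at DTC_30 (1.42 ± 0.25), and IZH2, of zinc homeostasis, rose by 1.50. Of 19 iron genes 3 were higher and 3 lower (15.8% each way, near the shares of all genes), with 1 higher without DTC_12 replicate 2 and 5 lower without DTC_30 replicate 2. The siderophore transporter gene SIT1 rose by 1.95 but did not pass without DTC_12 replicate 2 (adjusted p = 0.0704) or DTC_30 replicate 2 (adjusted p = 0.0826), and the cell wall protein gene FIT2 fell (-2.73, and -2.10 without DTC_12 replicate 2). Exporters of drugs and weak acids had 7 of 18 genes higher and 2 lower (38.9% and 11.1%, beside 16.5% and 16.3% of all genes). Besides PDR12 and AZR1, the polyamine exporter gene TPO2 had 659.3 and 705.5 at DTC_12 against 140.5 and 122.1 at DTC_30 (2.38 ± 0.27, adjusted p = 7.15e-05). AQR1, an exporter of acids and amino acids, fell by 1.98.

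For the genes past the test, the cold extreme was mostly an extreme of expression, while the warm extreme mostly was not. Of the 931 genes higher at DTC_12, 703 (75.5%) had their highest mean of the 6 cycle points there and 147 (15.8%) at 14.6 °C. Their lowest mean, however, lay more often at 21 °C while the temperature rose (459 genes, 49.3%) than at DTC_30 (312 genes, 33.5%). Of the 924 genes lower at DTC_12, 698 (75.5%) were lowest there, and 382 (41.3%) were highest at 21 °C rising against 348 (37.7%) at DTC_30. These are descriptions of group means over genes chosen by the comparison of the extremes. In the small-subunit processome the median level, relative to each gene's mean over the cycle, was -0.18 at 30 °C, 0.49 at 21 °C falling, 0.93 at 14.6 °C, 1.26 at 12 °C, -1.78 at 21 °C rising and -0.56 at 27.4 °C on the log2 scale. NOP7 had mean log2 signals of 4.82, 5.74, 6.43, 7.41, 3.45 and 4.79 at these points, so that it was lower on the way back than at the warm extreme.

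**Figure D4:**
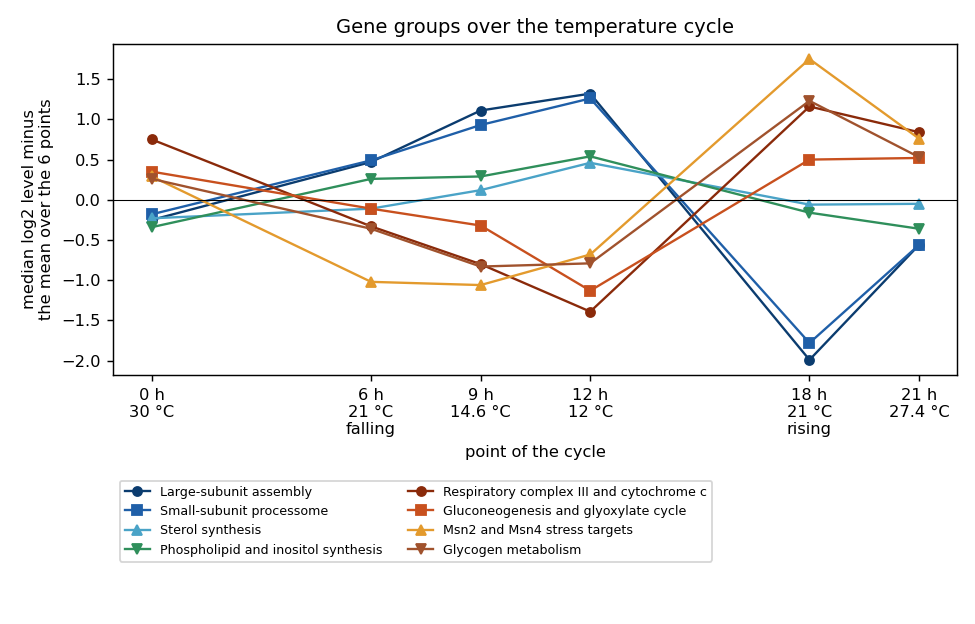
Lines give, for 8 gene groups over the 6 points of the cycle in hours, the median log2 level of the members minus each member's mean over the 6 points. The ribosome assembly groups are highest at 12 h and lowest at 18 h (-1.78 and -1.99), and the Msn2 and Msn4 targets are highest at 18 h (1.75).

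The groups that fell did not all keep to one course. Genes of complex III and cytochrome c stood at 0.75, -0.33, -0.80, -1.39, 1.16 and 0.84 relative to their cycle means from hour 0 to hour 21, with the lowest value at the cold extreme. The Msn2 and Msn4 targets stood at 0.29, -1.02, -1.06, -0.68, 1.75 and 0.76, so they were already low at hour 6 and higher at 21 °C rising than at the warm extreme. Glycogen genes stood at 0.26, -0.36, -0.83, -0.79, 1.23 and 0.53. For the phospholipid genes the values were -0.34, 0.26, 0.29, 0.54, -0.16 and -0.36, a flatter course. Single genes could be smoother. HXT4 had mean log2 signals of 5.83, 7.40, 8.65, 9.51, 6.69 and 6.17 in the same order, and OLE1 stayed between 12.01 and 12.33 at all 6 points.

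The series asked how far the cycle can be read from cultures held at constant temperature, and the extremes were set against the steady states for this. The difference between the cycle change (DTC_12 minus DTC_30) and the steady-state change (SS_12 minus SS_30) passed the test in 729 of 5656 genes (12.9%). It was above 0 in 371 (6.56%) and below 0 in 358 (6.33%). Of 12 genes picked to stand for the main groups, with earlier results of these data known, 9 passed. The invertase gene SUC2, low at the cold extreme, had 1698.1 and 1850.8 at SS_12 and 1668.7 and 1748.8 at SS_30, and its difference between the changes was -3.80 ± 0.30 (adjusted p = 4.86e-05). CYC1 had 550.8 and 591.8 at SS_12 and 574.5 and 689.4 at SS_30 (difference -2.93 ± 0.40, adjusted p = 0.00118). DBP2 had 598.5 and 668.1 at SS_12 against 194.4 and 222.0 at SS_30, a smaller rise than over the cycle (difference 3.14 ± 0.29, adjusted p = 0.000107). For CLB1 (0.96, adjusted p = 0.163), HXT4 (-1.21, adjusted p = 0.169) and OLE1 (-0.02, adjusted p = 0.978) the difference did not pass. CLB1 had 243.8 and 193.8 at SS_12 against 32.0 and 26.3 at SS_30, and its difference passed without DTC_30 replicate 1 (1.44, adjusted p = 0.0284).

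**Figure D5:**
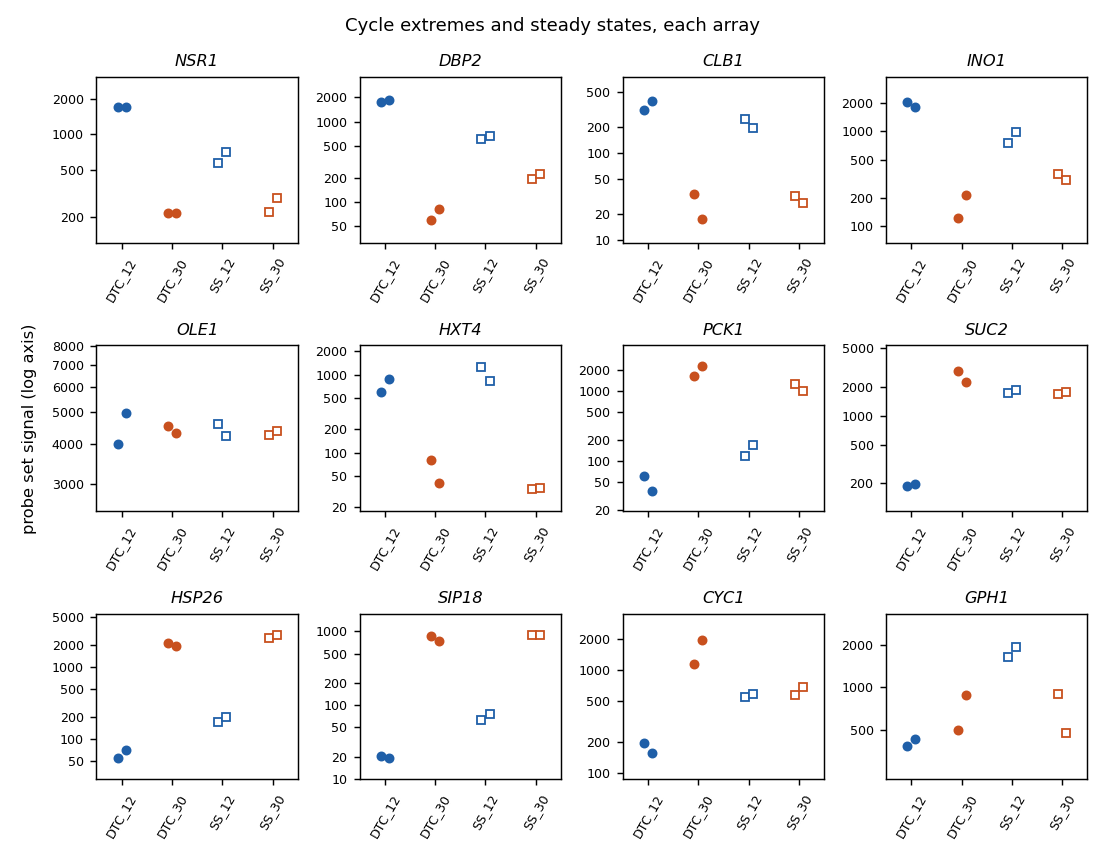
Each panel shows 1 of the 12 genes, with the signal of each array on a log axis. Filled dots are the cycle extremes (DTC_12, DTC_30) and open squares the steady states (SS_12, SS_30), with 12 °C in blue and 30 °C in orange. SUC2 and CYC1 separate at the cycle extremes and lie close together at steady state, while HXT4 separates in both.

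By group, the difference lay below 0 for most of the respiratory chain. It passed in 5 of 7 genes of complex II and the NADH dehydrogenases, 9 of 11 of complex III and cytochrome c, 8 of 10 of complex IV and 12 of 16 of the ATP synthase, all below 0, beside 6.33% of all genes. Mitochondrial ribosomal proteins passed below 0 in 33 of 75 cases. Of the Msn2 and Msn4 targets 7 of 27 passed below 0 and 2 above, whereas heat shock proteins and co-chaperones passed in 2 of 25, both below 0. HSP30 is an example, with 143.0 and 139.7 at SS_12 against 2731.2 and 2739.8 at SS_30 and a difference of -0.09 (adjusted p = 0.911). For large-subunit assembly the difference was above 0 in 14 of 62 genes, with a median of 1.04, and for the small-subunit processome in 10 of 54, beside 6.56% of all genes. All 10 seripauperins passed above 0, with a median of 2.15. Single metal genes changed in opposite directions in the cycle and at steady state. The difference passed, either way, in 3 of 11 copper and 3 of 19 iron genes, both shares above the 12.9% of all genes. CTR1 was lower at DTC_12 but had 273.3 and 341.9 at SS_12 against 118.8 and 107.7 at SS_30 (difference -3.98 ± 0.34, adjusted p = 8.5e-05). The iron permease gene FTR1 rose over the cycle, with 333.6 and 324.8 at DTC_12 against 145.8 and 184.7 at DTC_30, but had 80.8 and 87.9 at SS_12 against 449.1 and 645.5 at SS_30 (difference 3.68, adjusted p = 9.99e-05).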

How the data were processed

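The samples were hybridised to 17 Yeast Genome S98 arrays (Affymetrix), after labelling of 200 ng of total RNA with primers at the 3' end, per the labels' protocols. The authors deposited probe set intensity on a linear scale. The submitters' processing notes name RMA, yet the trimmed mean is 240.2 on every array, so how the values were made stays unknown. The genome build is not given in the sources used here, and no coordinates are printed.

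From the deposited values, log2 was computed after raising signals under 1 to 1. The 9335 probe sets gave 5656 genes named through the R64 reference, each by its brightest probe set, and no gene was filtered out. The background is the 95th percentile over 28 control probe sets. All tests are two-sided tests of limma (version 3.58.1, in R 4.3.3 with statmod 1.5.0), from a mean for each of 8 groups over 16 arrays with 8 residual degrees of freedom, and Benjamini-Hochberg adjustment over all genes. The array numbered 3, at 27.4 °C, stayed out as a possible analytical duplicate. The contrast of cycle and steady-state changes came from this model. A fold against a group not above background on either array is a bound, given as "at least". An exact permutation test of 2 against 2 arrays cannot give a p under 0.333. The number of arrays limits the precision. The model was also run on simulated arrays with known changes, but the outcome is not given here and no result rests on it.

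Members, gene lists and index genes were chosen with earlier results of these data known. Genes were named by size of change, by list (up to 4 each way and the few that went against the rest), as index genes and as copies of an enzyme, and the text gives a selection. LEU9 was named as 1 of 3 members that rose. The alternatives were quantile normalization, centring on the median, a floor of 12, leaving out dim genes, keeping every probe set, a trended and robust prior, a model of the compared groups alone, array weights, adding the array numbered 3, a replicate block, a 2-fold limit, an adjusted p under 0.01 and leaving out each array. A crossed block and the removal of a gene-length trend from each array were chosen after seeing the data.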

Additional observations from a re-analysis of the deposited data

Results flagged for a closer look

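The change over the cycle differed from the change between the steady states for 9 of 12 genes chosen to stand for the main groups, by the contrast of the changes in limma (2 arrays in each of the 4 groups). These genes were picked with earlier results of these data known, and the contrast holds the cycle change itself. The count of 9 therefore does not measure how common such differences are. Of all 5656 genes 12.9% passed. The differences are given as the cycle change minus the steady-state change on the log2 scale. They lay above 0 for DBP2 (3.14), INO1 (2.18) and NSR1 (1.65). They lay below 0 for SUC2 (-3.80), CYC1 (-2.93), PCK1 (-2.32), GPH1 (-2.14), SIP18 (-1.63) and HSP26 (-1.24). For PCK1, SIP18 and HSP26 both changes were falls and the fall over the cycle was deeper, for example with PCK1 signals of 116.7 and 168.2 at SS_12 against 1242.2 and 986.5 at SS_30. For GPH1 the signals were 1628.6 and 1911.4 at SS_12 against 893.2 and 473.7 at SS_30, while its cycle change did not pass. The differences of HSP26 and SIP18 did not pass with the length trend removed from each array (-1.03 and -0.96). Groups of 2 arrays are too small for a search for single arrays that stand apart.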

How the results depend on the processing

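The counts of genes past the test depended most on which and how many arrays the model held and on the threshold. With only the compared groups in the model, 782 genes passed between the extremes (340 higher, 442 lower), and at an adjusted p under 0.01 it was 1105 (523 higher, 582 lower). Leaving out each array in turn gave 1225 to 1663 genes (567 to 867 higher, 658 to 796 lower). For the difference between cycle and steady-state change, 343 genes passed with only the compared groups, 267 at an adjusted p under 0.01, and 410 to 753 with each array left out. The other alternatives kept these counts within 1.5 times. Of the genes named above that passed, 142 were followed through the alternatives. Of these, 114 passed in every refit, and none changed direction under any alternative.

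Genes that did not pass could change sign. OLE1 had -0.056 after quantile normalization, -0.034 with arrays centred on the median and -0.12 with the length trend removed, and ranged from -0.14 to 0.17 with an array left out. Its difference between the changes was 0.35 after quantile normalization and ranged from -0.17 to 0.14 with an array left out. COX5B had -0.035 with arrays centred on the median and ranged from -0.046 to 0.075, CDC19 from -0.28 to 0.66, GSP1 from -0.62 to 0.11, ICL1 from -0.24 to 0.24 and SAG1 from -0.84 to 0.16. MPC2 had 0.13 with the length trend removed. The cause was not tested.

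The labels give the groups the same replicate numbers but do not tie a number to a culture. The replicate differences of DTC_12 and DTC_30 correlated at -0.473 across genes. With the replicate block 1853 genes passed (930 higher, 923 lower) and 725 for the difference between the changes, while BDP1 (adjusted p = 0.0542) and LEU9 (adjusted p = 0.0571) no longer passed and CLB2 did (adjusted p = 0.031). Among the named genes followed through the alternatives no other call changed with it, and 5 in place of 3 iron genes were lower. With the numbers crossed as a block, 2046 genes passed.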

Other observations

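Some probe sets without a gene in the annotation passed the test too, though a smaller share than of the genes. Of 2443 such probe sets 955 lay above background, and in a fit of all probe sets 137 of the 2443 were higher and 114 lower at DTC_12. Both shares are below the 16.5% higher and 16.3% lower of all 5656 genes in the main fit. Which RNA they read is not known here. Of 170 measured genes that were not protein coding, 28 were among the 931 higher and 7 among the 924 lower genes, beside 16.5% and 16.3% of all genes. The changes were spread over all levels of expression. Among the 1414 dimmest genes (median signal 25.6) 136 were higher and 208 lower, and among the 1414 brightest (median signal 606.9) 291 were higher and 260 lower at DTC_12.

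The sporulation activator gene IME1 was at least 4.37-fold lower at DTC_12, where its signals of 8.7 and 6.7 lay under background, against 32.7 and 63.8 at DTC_30. Of 7 genes specific to haploid cells, 2 were higher at DTC_12, STE4 (0.77) and HO (0.78), and STE18 was lower (-1.39). These are 28.6% and 14.3%, beside 16.5% and 16.3% of all genes. None of these 3 passed without DTC_12 replicate 2 (0.59, 0.62 and -0.93), and STE4 and STE18 did not pass without DTC_30 replicate 2 (0.67 and -0.85). The signal of control probe sets for 18S ribosomal RNA varied within the groups more than between them, with 53.9 and 218.8 at DTC_12 and 322.1 and 92.5 at DTC_30. The ratio of the 3' to the 5' control of SRB4 was 3.43 and 29.68 at DTC_12 against 5.65 and 4.52 at DTC_30.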
